A study of Homo sapiens with 4 samples.

Results

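The genes described here are those of the cytosolic ribosomal proteins, the protein components of the ribosome that translates nuclear-encoded mRNAs. They were chosen by name and annotation, without any expression value: protein-coding rows of the gene count table whose name starts with RPL (large subunit) or RPS (small subunit). Names starting RPS6K, RPS19BP1, RPS4Y1 and RPS4Y2 were left out, as were names with a hyphen. This gave 85 genes, 53 RPL and 32 RPS, of 58735 gene rows and of 101 protein-coding rows with such a name. FAU and RACK1 also encode ribosomal proteins under other names and are counted among the other genes. The cells were SW1990, an established human pancreatic ductal cancer line, kept for 24 h with gomisin G at 10 µM (2 libraries) or with vehicle (2 libraries). Gomisin G is a plant lignan, and the labels name no genetic change in either group. RNA-seq counts per gene were used, and the comparison asks which of these transcripts differ with gomisin G in a study whose title concerns the Hippo-YAP growth pathway.

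Ribosomes carry the core proteins in fixed proportions, and cells keep the mRNAs of these genes at high and coordinated levels. Most of these mRNAs begin with a C followed by a run of pyrimidines, the 5′ terminal oligopyrimidine (TOP) tract, through which the TOR complex 1 kinase and the RNA-binding protein LARP1 couple their translation and stability to growth signals. The genes are short, contain few coding bases relative to most genes, and have left many processed copies in the genome. Some have duplicated paralogues with their own promoters, such as the muscle-enriched RPL3L and the germ-cell genes RPL10L and RPL39L.

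The start sites of genes named in the results below are shown because most, but not all, of the matched ribosomal protein genes have a TOP tract at the annotated start. Each line runs from 15 bases before the annotated start through the first 15 transcribed bases, in RefSeq on GRCh38.p14, 5′ to 3′ on the gene's strand, with the tract in capitals. A tract is C followed by at least 4 further pyrimidines (C or T), read on the gene's strand only and beginning at the first transcribed base.
RPLP2 (chr11:809952-809981, plus strand): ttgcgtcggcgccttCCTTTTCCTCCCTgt
RPL18 (chr19:48619164-48619193, minus strand): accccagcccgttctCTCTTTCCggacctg
RPL28 (chr19:55385917-55385946, plus strand): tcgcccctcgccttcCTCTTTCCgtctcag
RPL13A (chr19:49487593-49487622, plus strand): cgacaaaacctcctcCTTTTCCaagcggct
RPS6 (chr9:19380222-19380251, minus strand): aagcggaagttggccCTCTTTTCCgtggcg
RPL36A (chrX:101390996-101391025, plus strand): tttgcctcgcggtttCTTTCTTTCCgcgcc
RPS10 (chr6:34426055-34426084, minus strand): ccgcgcatgctccttCCTTTCCagccccgg
RPL22L1 (chr3:170870181-170870210, minus strand): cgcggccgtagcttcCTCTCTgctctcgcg
RPS27L (chr15:63157463-63157492, minus strand): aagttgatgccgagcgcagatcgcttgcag
RPL7L1 (chr6:42879601-42879630, plus strand): cggaagtgcggcgccgtagctaggagcgga
RPL10L (chr14:46651767-46651796, minus strand): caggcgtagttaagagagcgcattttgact
RPL3 (chr22:39319609-39319638, minus strand): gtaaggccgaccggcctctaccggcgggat
RPS28 (chr19:8321481-8321510, plus strand): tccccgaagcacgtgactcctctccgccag
RPS4X (chrX:72277234-72277263, minus strand): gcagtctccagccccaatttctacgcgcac
RPLP2, RPL18, RPL28, RPL13A, RPS6, RPL36A, RPS10 and RPL22L1 carry a tract at the annotated start, while the paralogues RPS27L, RPL7L1 and RPL10L and the core genes RPL3, RPS28 and RPS4X hold none exactly there. RPL3 and RPS28 hold one that begins within 5 bases of the start, and RPS4X holds none there. Of the 85 genes, 68 matched the RefSeq start-site table, and 47 of these (69.1%) had a tract exactly at the start, against 5.14% of all 27305 symbols in the table. Allowing the tract to begin up to 5 bases to either side raised the shares to 80.9% of the ribosomal protein genes and 25.2% of all symbols. No tract in this window says only that these letters are not at the annotated start.

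The libraries held 15034663 and 15245770 counts with gomisin G and 14580848 and 14901526 counts with vehicle. Depth therefore differed little, but the gomisin G libraries differed more from each other than the vehicle libraries did. A chi-square comparison of counts gave 37.2 per gene for the gomisin G pair and 6.98 per gene for the vehicle pair, so neither pair was 1 library deposited again. Nothing in the labels says whether the replicates were grown as separate cultures, and p-values therefore reflect sample-to-sample spread that may be technical. Keratin and other ductal epithelial markers were present, with 7 of 7 tested and summed levels of 9341 and 7010 CPM with gomisin G and 11234 and 9435 CPM with vehicle. Of 5 acinar and 4 immune markers, 0 passed the expression filter, and 3 of each were at 0 in every library. Of 6 fibroblast markers, 2 were tested and 2 were at 0 in every library, with summed levels of 8.57 and 11.99 CPM with gomisin G and 4.62 and 4.91 CPM with vehicle. Both tested ones were above vehicle in both gomisin G libraries (log2 changes of 0.83 and 1.57, 0 called and 2 with an unadjusted p below 0.05). Of 3 endothelial markers 1 was tested, with summed levels of 0.207 and 0.821 CPM with gomisin G and 0.966 and 0.269 CPM with vehicle. The part of these markers in the ribosomal protein results was not tested.

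Ribosomal protein transcripts made up a larger part of gomisin G replicate 1 than of any other library. The 85 genes held 7.60% of counts in gomisin G replicate 1 (95% Wilson interval 7.58 to 7.61) and 5.46% in gomisin G replicate 2 (5.45 to 5.47), against 5.72% (5.71 to 5.74) and 5.22% (5.21 to 5.23) in vehicle replicates 1 and 2. Gomisin G replicate 2 thus lay between the vehicle libraries. Intervals cover counting error only and are far narrower than the gap between replicates. The difference between group means, 1.06 percentage points, was -0.0117 points without gomisin G replicate 1 and 2.12 points without gomisin G replicate 2. Among counts of nuclear protein-coding genes, the share was 8.51% and 6.01% with gomisin G and 6.23% and 5.75% with vehicle. The balance of the subunits moved little, with 1.56 and 1.62 RPL counts per RPS count with gomisin G and 1.59 and 1.61 with vehicle. Mitochondrially encoded genes took 8.45% and 6.80% of counts with gomisin G and 6.03% and 7.05% with vehicle, and their part in these shares was not tested.

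**Figure D1:**
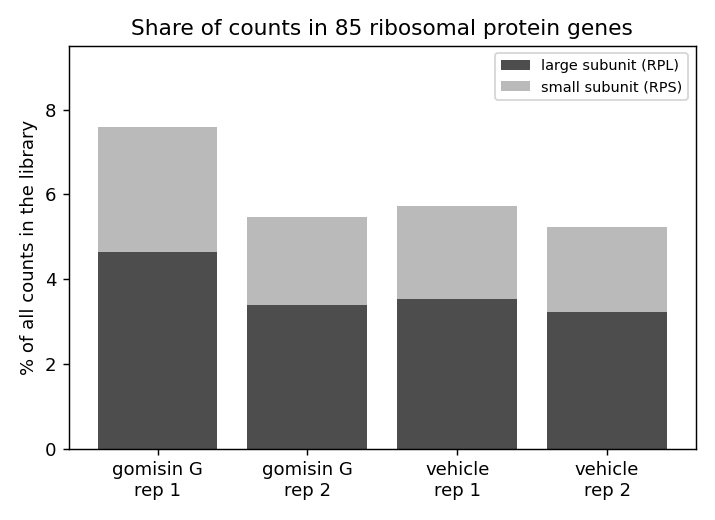
Share of all counts (%, from 0) held by the 85 ribosomal protein genes in each library, stacked by subunit. Gomisin G replicate 1 reached 7.60%, while gomisin G replicate 2, at 5.46%, lay between the vehicle libraries at 5.72% and 5.22%.

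None of the tested ribosomal protein genes passed the test for a change with gomisin G. Most had higher fitted levels, yet these rested on 1 of the 2 treated libraries: gomisin G replicate 1 was high and gomisin G replicate 2 was near or below vehicle across the family. Of the 85 genes, 82 passed the expression filter, and RPL3L, RPL10L and RPL39L did not. By edgeR's quasi-likelihood test with Benjamini-Hochberg adjustment over 15721 tested genes, 0 of 82 were called at an adjusted p below 0.05, where 1.83% of all tested genes were (0.922% rose and 0.903% fell). At an unadjusted p below 0.05 the count was also 0 of 82, where 20.6% of all tested genes passed, and limma voom and DESeq2 called 0 as well. The lowest adjusted p was 0.345, for RPS28, whose protein sits in the head of the small subunit. RPS28 had 504.8 and 330.6 CPM with gomisin G and 332.3 and 302.0 CPM with vehicle, so gomisin G replicate 2 lay within the vehicle range. In bulk RNA, fewer cells of a kind and less RNA per cell cannot be told apart.

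The fitted log2 changes were small and mostly positive. Their median was 0.23, with 73 positive and 9 negative, where 50.7% of all tested genes were positive and the median of all tested genes was 0.0092. They ran from -0.34 (RPL36A) to 0.47 (RPLP2), and their standard errors were 0.15 to 0.30 with a median of 0.24, close to the median change. Relative to the vehicle mean on the log2(CPM + 0.5) scale, the median member had a deviation of 0.49 in the first gomisin G library and of -0.11 in the second. The corresponding medians of all tested genes were -0.0048 and 0.0075, so the family departed from the bulk of genes in opposite directions in the 2 treated libraries.

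Gomisin G replicate 1 exceeded both vehicle libraries for 73 of 82 genes, against 43.3% of all tested genes. Gomisin G replicate 2 exceeded both for 4 of 82, against 40.5% of all tested genes, and lay below both for 47 of 82, against 39.6%. The other 31 lay between the vehicle libraries. Both gomisin G libraries lay above both vehicle libraries for 4 of 82 genes (RPL3, RPL10, RPL13A and RPL18), against 27% of all tested genes, and both lay below for RPL36A and RPL7L1, 2 of 82, against 27.3%. Taken by itself, gomisin G replicate 1 was below both vehicle libraries for 3 of 82, those genes and RPS10, against 43.7%. Replicate 1 was above replicate 2 within gomisin G for 81 of 82 genes, against 48.4% of all tested genes, with RPS10 the exception. Replicate 1 was also above replicate 2 within vehicle for 73 of 82, against 50.1%, but by less: the median member stood at 0.070 in vehicle replicate 1 and -0.070 in vehicle replicate 2. The position of gomisin G replicate 2 depended on scaling: with library totals alone, 29 of 82 genes lay below both vehicle libraries, near the 32.9% of all tested genes, and 13 lay above both, against 47.0% of all tested genes. On that scaling the median member stood at -0.045 and the median of all tested genes at 0.065. Gomisin G replicate 1 was above both for 73 or 74 genes under every scaling tried (TMM, RLE, upper quartile and totals).

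**Figure D2:**
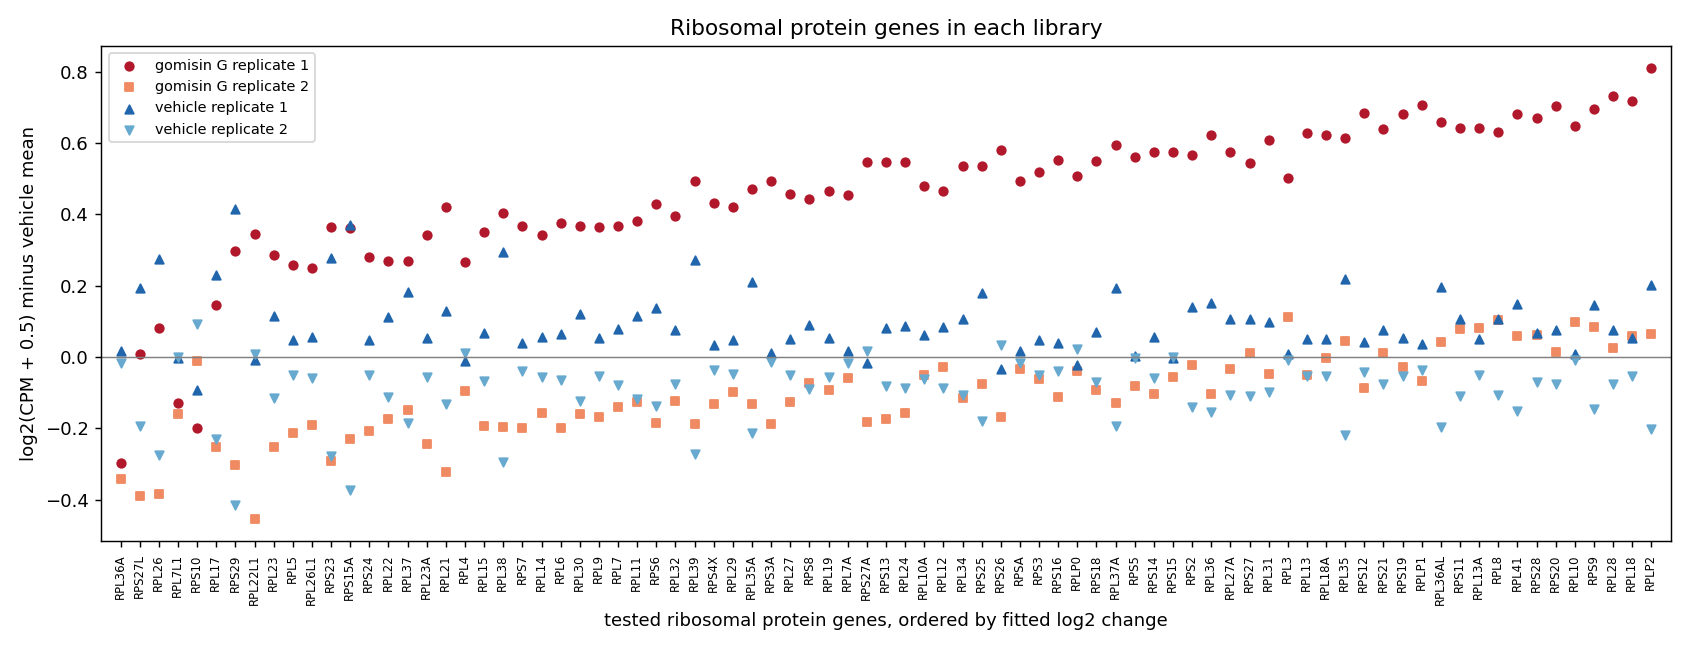
Deviation of 81 of the 82 tested ribosomal protein genes, each from its vehicle mean (y, log2(CPM + 0.5) scale), ordered by fitted log2 change (x), with 1 point per library. Circles of gomisin G replicate 1 lie above both vehicle points for 73 genes, and squares of gomisin G replicate 2 for 4 genes.

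Leaving out either treated library changed the calls. Without gomisin G replicate 2, 69 of 82 genes were called as higher and 0 as lower (18.5% of all tested genes rose and 20.1% fell), and the median log2 change was 0.49. Without gomisin G replicate 1, 0 of 83 were called as higher and 6 as lower (8.25% of all tested genes rose and 8.85% fell), namely RPL21, RPL22L1, RPL26, RPS23, RPS27L and RPS29, and the median was -0.11. Each such fit has a lone gomisin G library that is assumed to vary like the vehicle pair. RPL22L1 carried opposite calls, with log2 changes of 0.35 (edgeR adjusted p = 0.0123) without gomisin G replicate 2 and -0.46 (edgeR adjusted p = 0.00292) without gomisin G replicate 1. Leaving out either vehicle library left 0 ribosomal protein genes called, as did adding the replicate number as a block (8.96% of all tested genes rose and 9.4% fell).

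The genes with the highest fitted values had their excess in gomisin G replicate 1. RPLP2, an acidic protein of the stalk that recruits elongation factors, has a gene_length of 1955 bases. It had 892.2 and 532.4 CPM with gomisin G and 585.2 and 442.6 CPM with vehicle, a log2 change of 0.47 (SE 0.27, edgeR adjusted p = 0.356). Gomisin G replicate 2 of RPLP2 lay between the vehicle values, so the groups overlapped. RPL18, a large-subunit protein (gene_length 4209), had 1453 and 919.6 CPM with gomisin G and 916.3 and 850.3 CPM with vehicle, a log2 change of 0.43. Its groups were separated only by the small step between 919.6 and 916.3 CPM. RPL28 (gene_length 6933) had 1317 and 806.8 CPM with gomisin G and 835.0 and 752.8 CPM with vehicle, and RPS9 (gene_length 4371), a protein of early small-subunit assembly, had 1133 and 742.4 CPM with gomisin G and 774.7 and 632.2 CPM with vehicle. In both, gomisin G replicate 2 lay between the vehicle libraries. RPL10, which joins late and is needed for the subunits to join (gene_length 4825), had 1400 and 956.9 CPM with gomisin G and 899.3 and 888.4 CPM with vehicle. Both treated values of RPL10 were above both vehicle values, and its log2 change was 0.40 (SE 0.23, edgeR adjusted p = 0.348).

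By position in the ribosome, the same split between treated libraries appeared in every group. The 50 tested RPL genes had 45 positive and 5 negative log2 changes with a median of 0.19, and the 32 RPS genes had 28 positive and 4 negative with a median of 0.25. Median deviations were 0.46 and -0.12 for RPL genes, and 0.55 and -0.089 for RPS genes, in gomisin G replicates 1 and 2. The 4 stalk genes, RPLP0, RPLP1, RPLP2 and RPL12, had a median change of 0.31 with 4 of 4 positive. RPLP0, the stalk base, had 3138 and 2148 CPM with gomisin G and 2176 and 2242 CPM with vehicle, and RPLP1 had 1935 and 1131 CPM with gomisin G and 1216 and 1157 CPM with vehicle. For both, gomisin G replicate 2 was the lowest of the 4 libraries. The 7 genes around the exit tunnel (RPL17, RPL19, RPL23A, RPL26, RPL31, RPL35 and RPL39) had a median of 0.17, and the 14 genes of the small-subunit head a median of 0.26 with 11 positive.

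RPL5 and RPL11 form a particle with the 5S ribosomal RNA, which binds MDM2 when ribosome assembly is impaired. RPL5 (gene_length 3717) had 1022 and 738.5 CPM with gomisin G and 884.5 and 826.5 CPM with vehicle, and RPL11 (gene_length 2659) had 660.3 and 464.2 CPM with gomisin G and 549.0 and 467.0 CPM with vehicle. For both genes the treated values lay on either side of the vehicle values, and the log2 changes were 0.041 and 0.15.

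Small-subunit genes with roles beyond the core structure followed the same order. RPS6, the substrate of S6 kinase (gene_length 2714), had 1313 and 856.7 CPM with gomisin G and 1072 and 884.8 CPM with vehicle. RPS3, at the mRNA entry channel (gene_length 5894), had 1987 and 1328 CPM with gomisin G and 1434 and 1340 CPM with vehicle. RPSA, also known as a laminin receptor (gene_length 3936), had 2339 and 1625 CPM with gomisin G and 1681 and 1642 CPM with vehicle. In RPS6, RPS3 and RPSA alike, gomisin G held both the highest and the lowest library. RPS27A, made as a fusion with ubiquitin (gene_length 3130), had 977.7 and 589.9 CPM with gomisin G and 660.9 and 676.8 CPM with vehicle, and RPS4X (gene_length 2982) had 1030 and 696.8 CPM with gomisin G and 781.7 and 744.4 CPM with vehicle. RPS19, mutated in Diamond-Blackfan anaemia (gene_length 3799), had 1595 and 974.7 CPM with gomisin G and 1032 and 958.1 CPM with vehicle. For RPS27A and RPS4X gomisin G replicate 2 was lowest, and for RPS19 it lay between the vehicle values.

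RPL13A and RPL3 had both treated libraries above both vehicle libraries. RPL13A, which also serves in interferon-gated silencing of inflammatory mRNAs (gene_length 2369), had 2658 and 1803 CPM with gomisin G and 1764 and 1645 CPM with vehicle. RPL3, near the peptidyl transferase centre (gene_length 4787), had 2272 and 1734 CPM with gomisin G and 1613 and 1595 CPM with vehicle. In both genes the step from vehicle to gomisin G replicate 2 was smaller than that between the treated libraries. Their log2 changes were 0.39 (edgeR adjusted p = 0.390) for RPL13A and 0.32 (edgeR adjusted p = 0.424) for RPL3.

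The 9 negative changes lay mainly among paralogues and genes whose exons overlap those of other annotated genes. Among them were RPL36A (-0.34), RPS27L (-0.19), RPL26 (-0.16), RPL7L1 (-0.14), RPS10 (-0.11), RPS29 (-0.031) and RPL22L1 (-0.00067), and 0 of the 9 were called. In 5 core genes, RPL36A, RPL26 and RPS10 among them, at least 70% of coding bases lie under exons of another gene in GENCODE 29, such as the readthrough genes RPL36A-HNRNPH2 and RPS10-NUDT3. Overlap was counted by position, with the other gene on either strand. The 5 genes stood at 1.92 to 19.7 CPM per kb of gene_length in vehicle, against 12.9 to 1194 CPM per kb for the 72 other core members (those outside the paralogues). All 5 of their log2 changes were negative, against 1 of 72 (RPS29). RPL36A had 8.22 and 7.95 CPM with gomisin G and 10.3 and 10.1 CPM with vehicle, from 119 and 126 counts with gomisin G and 150 and 150 counts with vehicle. RPS10 had 3.87 and 4.48 CPM with gomisin G and 4.21 and 4.84 CPM with vehicle, from 56 and 71 counts with gomisin G and 61 and 72 counts with vehicle. Processed copies of RPS10 held more counts than the gene, 74.1% and 63.6% of the sum of gene and copies with gomisin G and 64.5% and 60.4% with vehicle. These levels are uncertain, since whether reads on overlapped exons were assigned, and whether strand was used, is not stated by the labels or the tables. At 50 to 70% overlap, RPL22, RPL30, RPS15A and RPS23 had 14.002 to 56.3 CPM per kb in vehicle and log2 changes of 0.048 to 0.12. The 68 core genes with under 50% overlap had a median change of 0.25, with 67 positive. The part of overlapped exons or copies in these differences was not tested.

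**Figure D3:**
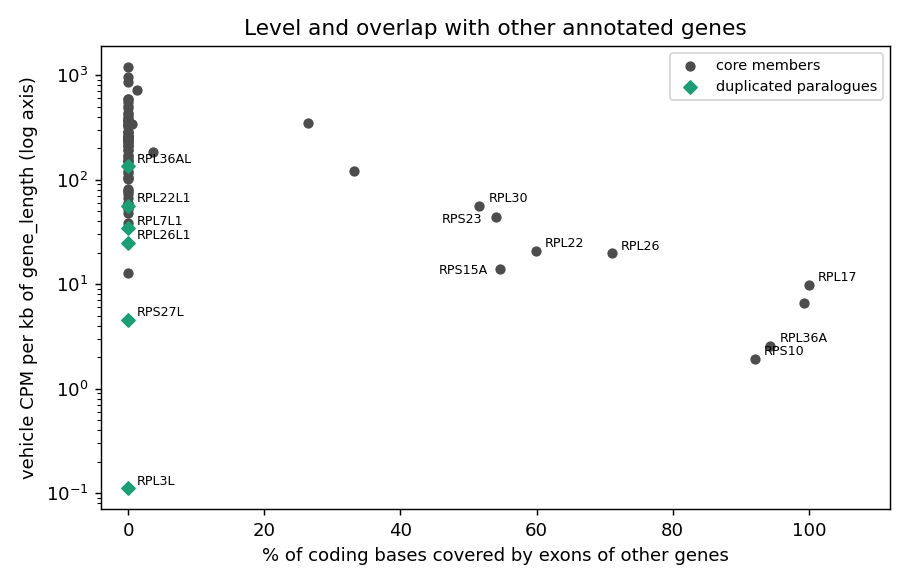
Vehicle level per kb of gene_length (y, log axis) against the share of coding bases covered by exons of other genes on either strand (x, %), with 1 point per ribosomal protein gene that was above 0 in vehicle. Genes with at least 70% overlap lie between 1.92 and 19.7 CPM per kb.

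The paralogues differed widely in level, and none of them was called. RPL10L and RPL39L had 0 counts in all 4 libraries, where 3 counts would be 0.207 and 0.189 CPM with gomisin G and 0.207 and 0.202 CPM with vehicle. RPL3L had 7 and 15 counts with gomisin G and 6 and 3 counts with vehicle, too few for a test. RPL36AL (gene_length 746) had 156.7 and 101.9 CPM with gomisin G and 113.5 and 86.3 CPM with vehicle. In vehicle RPL36AL stood at 133.9 CPM per kb of gene_length, above the 2.58 CPM per kb of its parent RPL36A, of which 94.3% of coding bases are overlapped. Per kb of coding sequence the gap was smaller, at 314 CPM for RPL36AL and 32.1 CPM for RPL36A. RPL22L1 (gene_length 2326) had 164.9 and 94.7 CPM with gomisin G and 129.0 and 130.7 CPM with vehicle. The treated libraries of RPL22L1 lay on opposite sides of a vehicle pair that differed little, with the widest gap between treated libraries among the tested members, 0.80 on the log2 scale. Its parent RPL22 (gene_length 4682) had 117.0 and 86.0 CPM with gomisin G and 104.8 and 89.8 CPM with vehicle.

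Among the other paralogues, RPL7L1, a relative of a yeast factor of large-subunit assembly (gene_length 7809), had 243.8 and 238.6 CPM with gomisin G and 266.3 and 266.9 CPM with vehicle. RPL7L1 was low in both treated libraries, with a log2 change of -0.14 (SE 0.15, edgeR adjusted p = 0.618), while its parent RPL7 had 1063 and 747.6 CPM with gomisin G and 870.4 and 780.0 CPM with vehicle. RPS27L, a p53-responsive relative of RPS27 (gene_length 9127), had 41.2 and 31.1 CPM with gomisin G and 46.9 and 35.7 CPM with vehicle. RPS27 (gene_length 1035) had 373.4 and 257.8 CPM with gomisin G and 275.6 and 237.2 CPM with vehicle. Per kb of gene_length, vehicle RPS27L stood at 4.53 CPM and RPS27 at 247.7 CPM. Per kb of coding sequence the gap was smaller, at 164 CPM for RPS27L and 1018 CPM for RPS27. RPL26L1 (gene_length 1164) had 34.5 and 25.3 CPM with gomisin G and 30.1 and 27.8 CPM with vehicle, and its parent RPL26, with overlapped exons, had 51.5 and 37.1 CPM with gomisin G and 58.9 and 40.04 CPM with vehicle. RPL39 had 215.6 and 134.3 CPM with gomisin G and 185.1 and 126.6 CPM with vehicle.

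Gene length as deposited describes these genes poorly. The gene_length column equals the union of all annotated exons for 85 of 85 genes and ran from 746 (RPL36AL) to 9845 bases (RPS29), with a median of 2982, while the coding sequence of the principal transcript ran from 75 (RPL41) to 1281 bases (RPL4), with a median of 453. The ratio of the lengths ran from 1.26 to 58.6. Per kb of gene_length, the highest vehicle levels were those of RPS2 (1194 CPM), RPS12 (967.5 CPM) and RPL8 (862.4 CPM). RPS2, at the mRNA entry channel, had 4250 and 2827 CPM with gomisin G and 3162 and 2602 CPM with vehicle. RPS12 had 1193 and 699.0 CPM with gomisin G and 763.9 and 720.3 CPM with vehicle, and RPL8 had 2879 and 1994 CPM with gomisin G and 1999 and 1725 CPM with vehicle. In each of these 3 genes gomisin G replicate 1 was highest, and gomisin G replicate 2 lay between the vehicle values for RPS2 and RPL8 and below them for RPS12. The lowest detected levels per kb were those of RPL3L (0.112 CPM), RPS10 (1.92 CPM) and RPL36A (2.58 CPM).

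Other short genes were also high in gomisin G replicate 1. Among non-members with 300 to 600 coding bases, the median deviation from vehicle was 0.35 in gomisin G replicate 1 and 0.0080 in gomisin G replicate 2 (1296 genes), and among those with more than 2500 coding bases it was -0.45 and -0.030 (2554 genes). The 49 ribosomal protein genes with 300 to 600 coding bases had medians of 0.54 and -0.12. Their fitted log2 change had a median of 0.23, against 0.19 for the non-members of that length. At 600 to 1000 coding bases the medians were 0.22 for 21 ribosomal protein genes and 0.11 for 2346 others, and at up to 300 bases 0.22 for 10 and 0.27 for 265. With the coding length trend of each library removed, an alternative chosen after seeing the data, the median of the ribosomal protein genes was 0.029. In that fit 1 of 82 was called, RPS27L as lower (log2 change -0.45, edgeR adjusted p = 0.0470). The fit covered 12669 protein-coding genes, of which 8.37% rose and 7.41% fell. Whether the trend arose in the cells or in the libraries was not tested.

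**Figure D4:**
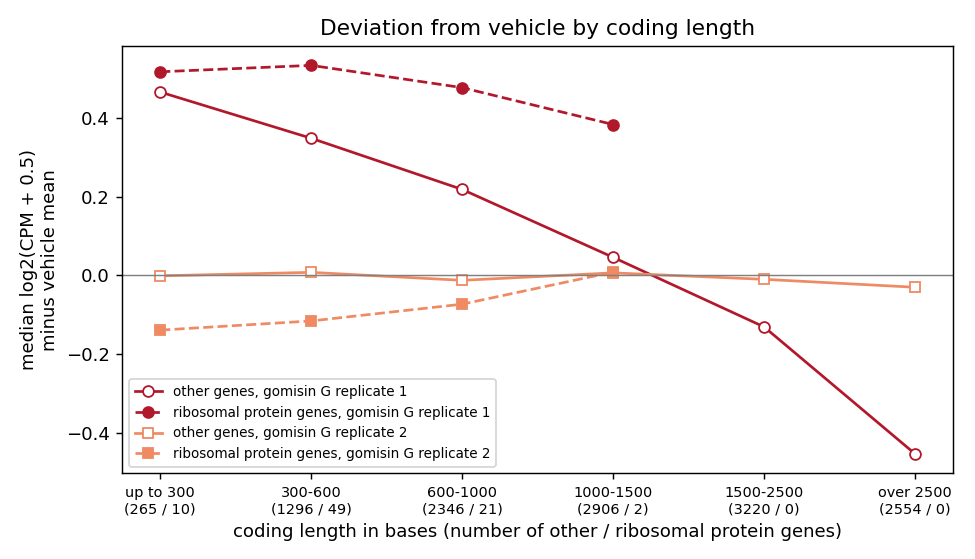
Median deviation from the vehicle mean (y, log2(CPM + 0.5) scale) by coding length (x, bases), for ribosomal protein genes (filled, dashed) and other protein-coding genes (open, solid) in each gomisin G library. In gomisin G replicate 1 the other genes have a median of 0.47 at the shortest and -0.45 at the longest lengths, and the ribosomal protein genes lie at 0.54 in the range of 300 to 600 bases, while in gomisin G replicate 2 they lie at -0.12 there.

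Within the family the fitted change ran more with the GC share of the coding sequence than with its length. Across the 82 genes, which share the same 4 libraries, Spearman's rho was 0.62 between coding GC share and log2 change and -0.034 between coding length and log2 change. Over 12669 protein-coding genes these were 0.35 and -0.32. Between gene_length and log2 change, rho was -0.29 across the 82 genes and -0.36 over the 12669. The 8 ribosomal protein genes with 58 to 62% GC had a median log2 change of 0.38, and the 16 with up to 46% GC one of 0.11. Other genes in the same ranges had medians of 0.12 and -0.17. The members lay above them in gomisin G replicate 1, with median deviations of 0.66 and 0.37 against 0.12 and -0.19. In gomisin G replicate 2 the members lay below them, at 0.011 and -0.19 against 0.10 and -0.14. Above 62% GC the median log2 change was 0.33 for 3 members and 0.26 for 2312 others. Paralogues and genes with overlapped exons, such as RPL22L1, RPS27L and RPL26, are among the 16 members with up to 46% GC. Their part in the relation to GC was not tested. The 12 genes on chromosome 19, RPL18, RPL28, RPL13A, RPS9, RPS19 and RPS28 among them, were all positive with a median of 0.38, and the 70 tested genes elsewhere had a median of 0.19.

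**Figure D5:**
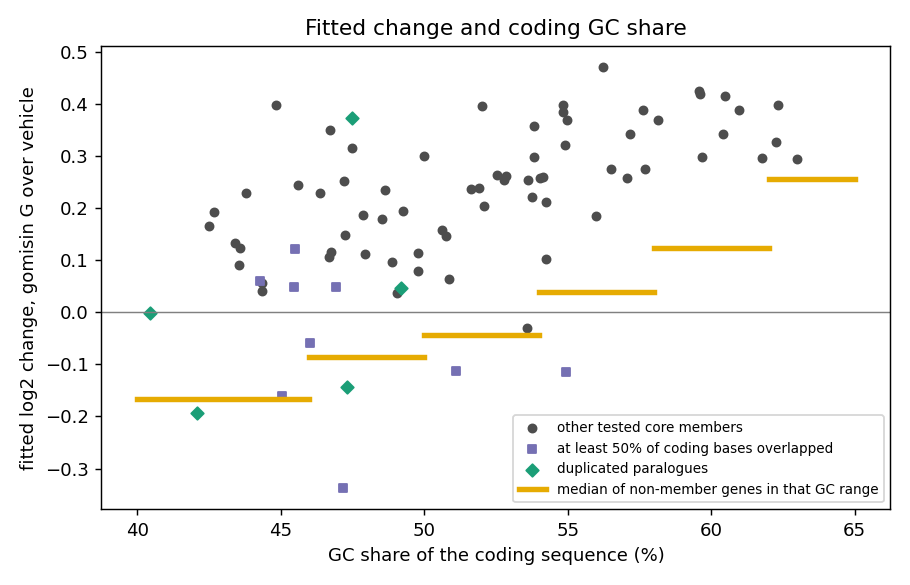
Fitted log2 change, gomisin G over vehicle (y), against GC share of the coding sequence (x, %), with 1 point per tested ribosomal protein gene. Bars give the median of other protein-coding genes in each GC range (the leftmost and rightmost ranges are open-ended), from -0.17 up to 46% to 0.26 above 62%.

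Tested ribosomal protein genes with a tract at the annotated start had a median log2 change of 0.25, and the 20 matched without one exactly there 0.14. Within 5 bases of the start, 55 of the 67 tested and matched genes held a tract, so some of the 20 had one nearby. Both sets include paralogues and genes with overlapped exons, and their part in this difference was not tested. Other tested genes with a tract, 697 of 9999, had a median of 0.026, and those without one -0.016. Outside the ribosomal proteins, a list of genes known for TOP mRNAs (translation factors such as EEF1A1, EEF2 and PABPC1) had 20 of 21 tested, with 11 positive and 9 negative changes, a median of 0.071 and 0 called. Its median deviations were 0.17 in gomisin G replicate 1 and -0.14 in gomisin G replicate 2. EIF2S3, a subunit of the factor that brings initiator tRNA, had 201.9 and 209.9 CPM with gomisin G and 265.6 and 249.98 CPM with vehicle, low in both treated libraries. Its log2 change was -0.32 (SE 0.15, edgeR adjusted p = 0.279), and that of EIF3L, a subunit of initiation factor eIF3, was -0.36 (SE 0.17, edgeR adjusted p = 0.285).

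Genes that carry or regulate ribosomal proteins were examined as 2 lists, with 0 called in each. Only 1.83% of all tested genes were called, so a count of 0 in lists of this size does not set them apart. Of 14 chaperones and importers of ribosomal proteins, 6 had positive and 8 negative changes, 0 were called and 4 had an unadjusted p below 0.05, where 20.6% of all tested genes had one. Both treated libraries were below both vehicle libraries for 7 of the 14 and above both for 0, where 27.3% of all tested genes were below and 27% above. KPNB1 encodes importin beta 1, the main nuclear import receptor, and had 290.8 and 403.4 CPM with gomisin G and 570.4 and 587.2 CPM with vehicle. IPO7, another importer of ribosomal proteins, had 206.5 and 269.0 CPM with gomisin G and 370.8 and 377.6 CPM with vehicle. Both treated libraries were below both vehicle libraries for KPNB1 and IPO7, with log2 changes of -0.74 (SE 0.20, edgeR adjusted p = 0.102) and -0.65 (SE 0.18, edgeR adjusted p = 0.107). Over 12669 protein-coding genes the log2 change fell with coding length (Spearman's rho -0.32). The part of coding length in the values of these lists was not tested. Of 20 tested genes of TOR complex 1 and TOP control, 7 were positive and 13 negative, 0 were called and 3 had an unadjusted p below 0.05. Both treated libraries were above both vehicle libraries for 4 of the 20 and below both for 7, where the shares of all tested genes were 27% and 27.3%. MAF1, a repressor of RNA polymerase III that TOR complex 1 inhibits, had 220.7 and 180.6 CPM with gomisin G and 136.7 and 125.0 CPM with vehicle, and LARP4, a poly(A)-associated protein, had 68.9 and 86.2 CPM with gomisin G and 108.8 and 105.2 CPM with vehicle. The groups did not overlap for either gene, which holds for 27% of all tested genes in the direction of MAF1 and 27.3% in that of LARP4, at adjusted p = 0.102 for MAF1 and 0.183 for LARP4 in edgeR.

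The mitochondrial ribosomal protein genes (MRPL and MRPS), which serve the separate ribosome of the organelle, had 77 of 78 tested and 0 called. Their log2 changes had a median of 0.11, with 54 positive and 23 negative. Their median deviations were 0.31 in gomisin G replicate 1 and -0.16 in gomisin G replicate 2. Over all tested genes, 1.83% were called and 50.7% had a positive change. Of genes outside the cytosolic family, 71.5% were positive at 300 to 600 coding bases and 61.85% at 600 to 1000. The part of coding length in the mitochondrial ribosomal values was not tested. An unadjusted edgeR p below 0.05 was reached by 1 of the 77, against 20.6% of all tested genes. Both treated libraries were above both vehicle libraries for 9 of 77 and below both for 6, against 27% and 27.3%. MRPS21, of the small mitochondrial subunit, had 36.5 and 30.4 CPM with gomisin G and 23.3 and 22.4 CPM with vehicle, and an edgeR adjusted p of 0.144.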

How the data were processed

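RNA-seq counts came from 2 gomisin G and 2 vehicle libraries of SW1990 cells. The authors deposited raw, unnormalised counts for each gene. Per the submitters' processing notes, fastp, HISAT2, featureCounts and the build hg38 were used, and per the labels' protocols ribosomal RNA was removed before library construction. Strand use and the handling of reads that match several places or genes are not given in the sources used here. Genes with processed copies are therefore uncertain. The series table was checked against the sample tables, and 0 entries differed. Counts were tested with edgeR 4.0.16 in R 4.3.3 (default filter by group, TMM factors, robust quasi-likelihood, 2 residual degrees of freedom), with Benjamini-Hochberg adjustment over 15721 genes and calls below 0.05. The test was tried on simulated data first. CPM uses TMM factors, and deviations add a pseudocount of 0.5. Depth was 14580848 to 15245770 counts, and 3 counts, the floor for a count of 0, equal 0.189 to 0.207 CPM. Intervals and floors cover counting error only. DESeq2 1.42.0 and limma 3.58.1 were alternatives. Exons, coding length and GC come from GENCODE 29, start sites from RefSeq. Members, lists and tests were chosen with earlier results of these data known. Named genes are the listed paralogues with their parents, preset core genes, the 5 largest changes in each direction, the 3 highest and 3 lowest levels per kb, and, from other lists, the 2 genes with the lowest p. Values of some single genes are not reported here, while counts and medians cover all members.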

Additional observations from a re-analysis of the deposited data

How the results depend on the processing

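Under RLE, upper-quartile and total-count scaling, no or a stricter filter (50 counts in 2 libraries), DESeq2, limma voom, legacy dispersion, gene length trend removal and summed processed copies, 0 ribosomal protein genes were called and their median log2 change stayed positive (0.10 to 0.29). All called genes numbered 287, but 813 with DESeq2 and 887 with the gene length trend removed. With trends removed after seeing the data, the counts were 1999 (coding length, with 1 ribosomal protein gene called, 1 of them lower) and 1422 (coding length and GC, with 0). Both of those fits covered only the 12669 protein-coding genes with a coding length. Leaving out 1 library at a time gave 0 to 69 called ribosomal protein genes (0 to 69 higher, 0 to 6 lower), 135 to 6322 called genes in all, a median of -0.11 to 0.49 and a difference in share of -0.0117 to 2.12 percentage points. RPL22L1 ran from -0.46 to 0.35. The reversals of the median (-0.11) and of the share (-0.0117) came without gomisin G replicate 1. Among the 32 tested genes named by rule, that omission changed the sign of 16, and 24 were called without gomisin G replicate 2. With a replicate block, 0 ribosomal protein genes were called, the median was 0.19 and 2886 genes were called in all. In that edgeR fit RPL36AL, RPLP2 and RPS28, 3 of 82, had an unadjusted p below 0.05, against 30.7% of all tested genes. The labels do not pair the numbers, and deviations of the replicate 1 libraries correlated at 0.21 over 15721 genes. With 2 libraries a group and standard errors of 0.15 to 0.30, changes of the size seen in most members could not be told from 0.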

Other observations

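Processed copies, the pseudogene rows named after a ribosomal protein gene, numbered 1144 and held 0.378% and 0.286% of counts with gomisin G and 0.284% and 0.272% with vehicle. The copies therefore had their highest share in the same library as the genes. RPL9, a large-subunit protein gene, had most of its counts in copies: 63.5% and 60.9% of the counts of gene and copies with gomisin G and 59.7% and 59.5% with vehicle. A single row, RPL9P9, held 9623 and 6481 counts with gomisin G and 6559 and 6183 with vehicle. For RPS28 the copies held 40.02% and 37.6% with gomisin G and 37.7% and 37.8% with vehicle, and for RPS2 they held 18.7% and 21.7% with gomisin G and 19.2% and 22.5% with vehicle. RPS10, at far lower counts, had 160 and 124 counts in copies with gomisin G and 111 and 110 with vehicle, again more than the gene itself. Levels of RPL9, RPS10, RPS28 and RPS2 are therefore uncertain, since reads of near-identical copies may be split between rows. These genes were singled out after their values were seen.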
